A study of Mus musculus with 22 samples.

Results

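The 9 enzymes that carry 3-hydroxy-3-methylglutaryl-CoA (HMG-CoA) synthesis and mevalonate on to lanosterol were followed through RNA sequencing of mouse splenic monocytes and of macrophages made from them. They were taken by name in pathway order: Hmgcs1, Mvk, Pmvk, Mvd, Idi1, Fdps, Fdft1, Sqle and Lss, 9 of the 55487 genes in the tables, and all 9 passed the filter on low counts in every comparison. The cells came from the spleens of wild-type male C57BL/6 mice. Monocytes were given vehicle (6 libraries, replicates 1 to 6) or oxidised low-density lipoprotein (ox-LDL) at 50 µg/mL for 24 hours (5 libraries, 7 to 11). Macrophages were such monocytes after 5 days in phorbol myristate acetate (PMA) at 200 ng/mL, given vehicle (5 libraries, A to E) or the same ox-LDL (6 libraries, G to L). The labels give neither the age of the mice nor whether each library stands for its own mouse or culture, so the p-values measure only the spread between these libraries, which may be technical. In units of 1000000, each library held 37.3 to 50.3 counts.

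HMG-CoA synthase joins acetyl units to HMG-CoA, which is reduced to mevalonate. A pair of kinases and a decarboxylase turn mevalonate into the isoprene unit isopentenyl diphosphate. An isomerase and a prenyltransferase build farnesyl diphosphate, from which protein prenyl groups, dolichol and ubiquinone also branch. Squalene synthase commits farnesyl units to sterols, and squalene epoxidase and lanosterol synthase close the first sterol ring system. The genes are known targets of the transcription factor SREBP-2, which is held in the endoplasmic reticulum by SCAP and INSIG proteins when membranes are rich in cholesterol, and macrophages that take up modified lipoproteins are known to receive cholesterol in this way.

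The labelled cell types were set against marker lists. Summed over 10 genes, macrophage markers (such as Adgre1, Cd68 and Csf1r) ran from 36249 to 48179 CPM (counts per 1000000) in the macrophage libraries and from 7053 to 15128 in the monocyte libraries. In vehicle macrophages Gpnmb had the highest mean of the list (19982 CPM), against 4487 for Csf1r, 2869 for Cd68 and 1238 for Adgre1. The mean of Lgals3 there (5386) lay between its monocyte means with vehicle (3597) and ox-LDL (6180). Monocyte ox-LDL libraries (9676 to 15128) lay mostly above vehicle ones (7053 to 9840) in this sum. In group means, Lgals3 (3597 to 6180 CPM), Gpnmb (1427 to 2976) and Cd68 (787 to 1182) were higher with ox-LDL. Adgre1 (261 to 271) and Mrc1 (40.3 to 41.1) changed little. Csf1r (808 to 693), C1qa (230 to 163), C1qb (424 to 338), C1qc (433 to 357) and Mertk (66.3 to 61.6) were lower. The sums of monocyte markers (10 genes) overlapped between the labelled types. In monocytes they ran from 677 to 2172 CPM with vehicle and 695 to 2430 with ox-LDL. In macrophages they ran from 253 to 951 and 152 to 635. Single genes of this list went both ways. In vehicle group means, Chil3 (686 CPM in monocytes, 0.82 in macrophages), Ly6c2 (108 and 1.28), Ace (20.2 and 1.57) and Ccr2 (19.9 and 8.74) were lower in macrophages. Cx3cr1 (82.9 and 258) and F13a1 (51.9 and 212) were higher there. The monocyte libraries also held markers of dendritic cells (9 genes, 7249 to 12837 CPM) and erythroid cells (9 measured genes, 439 to 14413). B-cell markers (8 genes) summed to 246 to 926 CPM there. Of the dendritic sum in vehicle monocytes, Ccr7 (mean 7179 CPM) and Fscn1 (2547) made up most. Flt3, Zbtb46 and Ccl22 held 316, 170 and 132, Cd209a 5.20, and Xcr1, Siglech and Clec9a 0.39, 0.35 and 0.27. Neutrophil markers (13 genes) summed to between 30356 and 46106 CPM in monocyte replicates 5, 6, 10 and 11, to between 4954 and 6087 in the other 7, and to at most 335 in macrophages. The part of these cells in the monocyte values was not tested, except where the enzymes are given without the 4 libraries. In bulk RNA, fewer cells of a type and less RNA per cell cannot be told apart.

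In macrophages, transcripts along nearly the whole route were lower with ox-LDL. Called at an adjusted p under 0.05 in edgeR's quasi-likelihood test, 7 of the 9 enzymes fell and 0 rose, with folds from 1.46 for mevalonate kinase to 3.03 for isopentenyl diphosphate isomerase. The 2 not called, Pmvk and Fdft1, also had estimates below 0. Of all 14543 genes tested, 1.38% were called lower. The groups did not overlap, with every ox-LDL library below every vehicle library, in the same 7 enzymes, against 1.79% of all genes. Summed over the enzymes, vehicle libraries held 199 to 211 CPM and ox-LDL libraries 101 to 127, means of 206 ± 4.50 (SD, n = 5) and 115 ± 10.1 (n = 6). In log2 fold change the median of the 9 was -0.82 and that of all genes tested 0.00029.

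**Figure D1:**
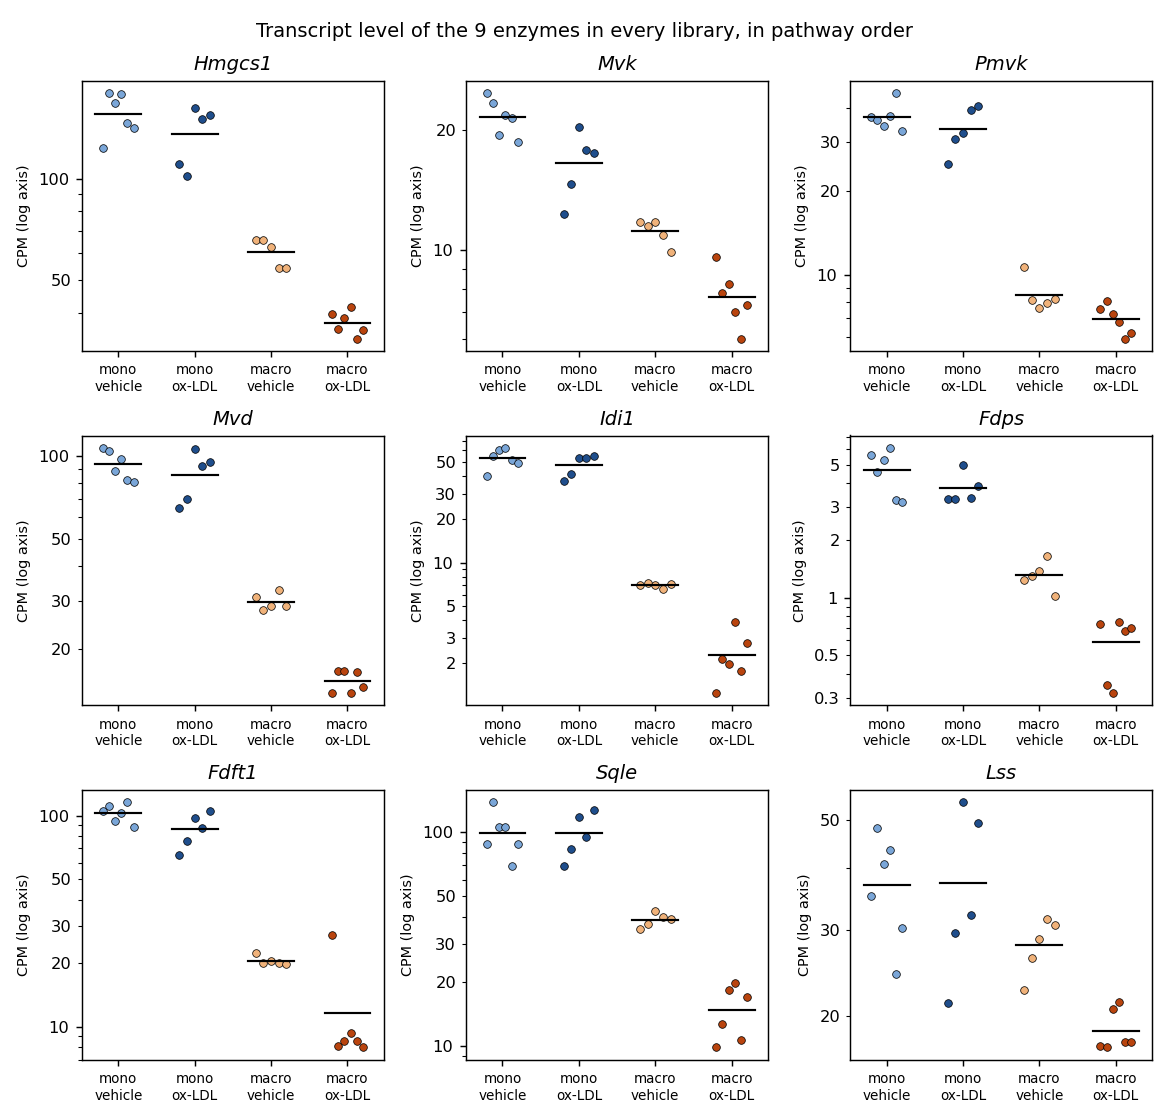
CPM of each enzyme on a log axis (y), 1 point per library, in the 4 groups (x: mono for monocytes, macro for macrophages), with the group mean as a line. In macrophages 7 panels show ox-LDL libraries entirely below vehicle ones, while 1 ox-LDL macrophage library stands at 27.3 CPM in the Fdft1 panel, and the monocyte groups overlap in all 9 panels.

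The route opens with Hmgcs1 (ENSMUSG00000093930; GRCm38 chromosome 13, 119690379 to 119708260, + strand), the cytosolic HMG-CoA synthase. Vehicle macrophages A to E held 65.6, 65.6, 62.5, 54.3 and 54.2 CPM, and ox-LDL macrophages ran from 33.5 through a median of 37.1 to 41.5. All ox-LDL libraries were lower, and the log2 fold change was -0.69 ± 0.08 (SE; adjusted p = 6.49e-04, edgeR). Mvk (ENSMUSG00000041939; chromosome 5, 114444269 to 114460591, + strand), which phosphorylates mevalonate, stood at 11.8, 11.5, 11.8, 10.9 and 9.90 CPM with vehicle and between 6.01 and 9.61 (median 7.54) with ox-LDL. The groups came close but did not meet, and the change was -0.54 ± 0.11 (adjusted p = 0.0238). That call was lost in 1 fit over all 4 groups (adjusted p = 0.0625) and without any one of replicates B, C, H and L (at most 0.0665).

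Pmvk (ENSMUSG00000027952; chromosome 3, 89454541 to 89469013, + strand) encodes phosphomevalonate kinase, the next enzyme. Its vehicle libraries held 10.7, 8.13, 7.60, 7.94 and 8.19 CPM and its ox-LDL libraries 5.92 to 8.08 (median 7.00). The groups overlapped, and Pmvk was the only enzyme below 0 that was called under none of the 18 alternative settings (-0.29 ± 0.12, 95% interval -0.54 to -0.04, adjusted p = 0.259). The following step, Mvd (ENSMUSG00000006517; chromosome 8, 122433601 to 122443422, - strand), the decarboxylase that makes isopentenyl diphosphate, had the lowest p of the 9. It ran from 30.9, 27.7, 28.6, 32.8 and 28.7 CPM with vehicle to 13.9 to 16.7 (median 15.6) with ox-LDL. The ranges lay far apart, at -0.95 ± 0.08 (adjusted p = 4.10e-05), the third lowest p of all genes tested.

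Idi1 (ENSMUSG00000058258; chromosome 13, 8885501 to 8892451, + strand), the isomerase that supplies the allylic starter unit, showed the largest fold. Vehicle libraries agreed closely at 6.98, 7.18, 7.04, 6.61 and 7.15 CPM, while ox-LDL libraries spread from 1.25 to 3.87 (median 2.07). The fall was -1.60 ± 0.22 (adjusted p = 0.00185), 3.03-fold. Fdps (ENSMUSG00000059743; chromosome 3, 89093588 to 89101959, - strand), farnesyl diphosphate synthase, had the lowest counted level of the enzymes. It held 1.24, 1.30, 1.38, 1.66 and 1.02 CPM with vehicle and 0.32 to 0.75 (median 0.69) with ox-LDL. The log2 fold change was -1.17 ± 0.26 (adjusted p = 0.0328), a call lost without any one of A, B, C, D, E, H, K and L. Both genes share sequence with other annotated genes: 86.4% of the 50-base windows of the longest Fdps coding transcript also occur in 8 other genes and 30.5% of those of Idi1 in 5. Fdps also shares 1124 exonic bases, 26.7% of its summed exon length, with Gm43738 on the same strand. Gm43738 holds 77.3% of the Fdps windows and stood at 0 CPM in every group. Counts went down to 15 for Fdps. How shared reads were counted is not given in the sources used here, and their part in these values was not tested.

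Fdft1 (ENSMUSG00000021273; chromosome 14, 63145150 to 63179578, - strand) encodes squalene synthase, which commits the pathway to sterols. Its vehicle libraries held 22.4, 20.1, 20.6, 19.96 and 19.8 CPM. Of the ox-LDL libraries, H to L lay between 7.98 and 9.35, and G stood at 27.3, above every vehicle library. With G the change was -0.82 ± 0.29 (adjusted p = 0.188, not called). Without G it was -1.27 ± 0.08 (adjusted p = 3.47e-06), and G was the only library whose removal made the gene called. Limma voom and the fit with library sets called it with G included. Among the ox-LDL libraries, G was also the highest for Mvk, at 9.61 CPM, and the lowest for Mvd (13.9), Idi1 (1.25) and Sqle (9.85). Of its 50-base windows 30.7% also occur in 2 other genes. The gene shares 774 exonic bases with the antisense cathepsin gene Ctsb, which in G stood at 30978 CPM, within the 26169 to 36789 of the 6 ox-LDL libraries. Whether counting used strand is not given in the sources used here.

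The 2 last steps both fell. Sqle (ENSMUSG00000022351; chromosome 15, 59315077 to 59331192, + strand), squalene epoxidase, a rate-controlling oxygenase of the sterol branch, held 35.4, 37.2, 42.9, 40.1 and 39.2 CPM with vehicle and 9.85 to 19.8 (median 14.8) with ox-LDL. The fold was 2.65, and the log2 fold change -1.40 ± 0.17 (adjusted p = 7.60e-04). Lss (ENSMUSG00000033105; chromosome 10, 76531588 to 76557138, + strand), lanosterol synthase, held 22.6, 26.3, 28.8, 31.6 and 30.7 CPM with vehicle and 17.3 to 21.4 (median 17.7) with ox-LDL. The gap between the groups was narrow, and the change was -0.58 ± 0.10 (adjusted p = 0.00619). It was not called in 1 fit over all 4 groups (adjusted p = 0.33). Hmgcs1, Mvd, Idi1 and Sqle were called under all 18 alternatives.

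A first principal component of the macrophage libraries crossed the treatments, and the values were therefore also read within 3 sets of libraries along it (C, D, I and J, then A, G, H and K, then B, E and L), a division chosen after the data were seen. The mean of each of the 9 enzymes was lower with ox-LDL in each of the 3 sets. Fdft1 overlapped in the set that holds G, and the other 8 did not overlap in any set. With 1 to 3 libraries a side these sets allow no test, and no share over all genes stands beside these counts. Mvd was the most even, with differences of -1.003, -0.98 and -0.94 in log2 CPM, and Idi1 ran from -2.02 to -1.29.

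**Figure D2:**
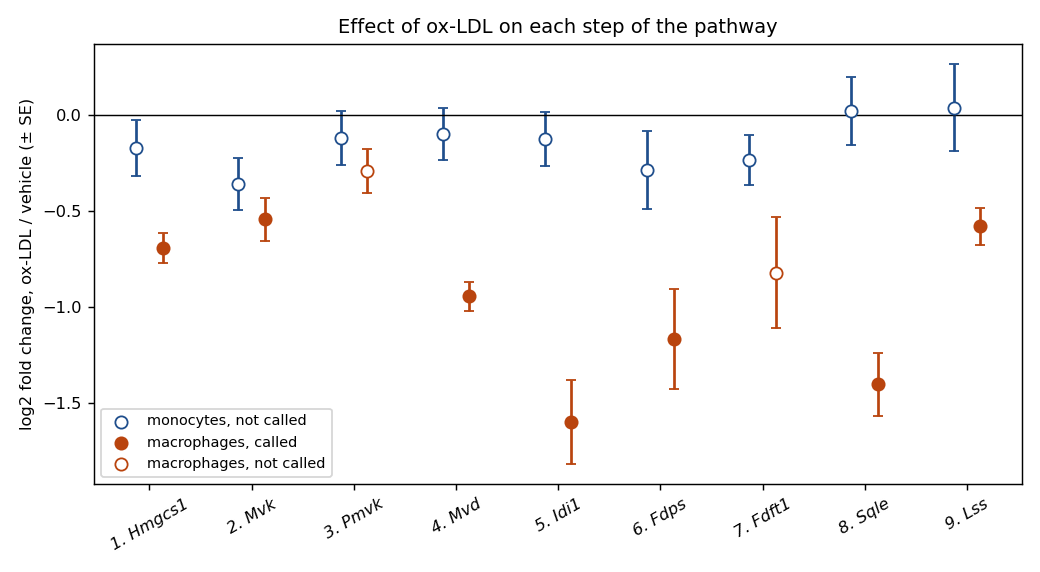
log2 fold change of ox-LDL over vehicle with its SE (y) for the 9 enzymes in pathway order (x), in monocytes (blue) and macrophages (red), filled where called. The macrophage values lie between -1.60 and -0.29 and the monocyte values between -0.36 and 0.04.

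In monocytes ox-LDL moved the enzymes little. With edgeR, 0 of the 9 were called, also under each of 20 alternatives, which include DESeq2, limma voom and leaving out the 4 libraries high in neutrophil markers. Of all 16575 genes, 0.0241% were called. In this edgeR fit only Mvk, with an unadjusted p of 0.0189 (adjusted p = 0.373), passed 0.05 before adjustment. Every enzyme overlapped between the groups, where 0.748% of all genes lay entirely lower. The median log2 fold change of the 9 was -0.13.

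Mvk ran from 18.6 through a median of 21.6 to 24.7 CPM with vehicle and stood at 20.3, 17.8, 17.5, 12.3 and 14.7 in ox-LDL replicates 7 to 11, a change of -0.36 ± 0.14 (95% interval -0.65 to -0.07). Hmgcs1 ran from 124 through 157 to 180 CPM with vehicle and stood at 163, 151, 155, 111 and 102 with ox-LDL. Replicates 10 and 11 were the low ones, and the change was -0.17 ± 0.15 (interval -0.49 to 0.14). Idi1, the enzyme that fell most in macrophages, held 39.6 to 62.6 CPM (median 53.2) with vehicle and 53.1, 52.8, 54.9, 36.7 and 41.3 with ox-LDL, -0.13 ± 0.14 (interval -0.43 to 0.18). That interval ends short of the macrophage value of -1.60.

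Sqle, at 69.1 to 138 CPM (median 96.6) with vehicle and 118, 95.1, 127, 69.3 and 83.3 with ox-LDL, gave 0.02 ± 0.18 (interval -0.36 to 0.41). Lss gave 0.04 ± 0.23, from 24.4 to 48.2 CPM (median 37.9) with vehicle and 54.4, 32.2, 49.5, 21.3 and 29.5 with ox-LDL. Both sat near 0, and their sign turned under several settings. The other 4 lay between: Mvd at -0.10 ± 0.14, Pmvk at -0.12 ± 0.14, Fdft1 at -0.23 ± 0.13 and Fdps at -0.29 ± 0.20. Without replicates 5, 6, 10 and 11, Pmvk stood at 0.07.

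The difference between the ox-LDL effects was tested itself, as an interaction contrast over the 22 libraries. Estimates were below 0, that is a larger fall in macrophages, for all 9 enzymes, and 2 were called: Idi1 at -1.45 ± 0.26 (adjusted p = 0.0354, edgeR) and Sqle at -1.40 ± 0.27 (adjusted p = 0.0444). Of 17466 genes, 0.0573% were called lower. Mvd followed at -0.82 ± 0.17 (adjusted p = 0.0655). Fdps at -0.86 ± 0.33, Lss at -0.59 ± 0.27, Fdft1 at -0.57 ± 0.34 and Hmgcs1 at -0.50 ± 0.17 had adjusted p-values from 0.514 to 0.787. Mvk and Pmvk, at -0.16 ± 0.18 and -0.15 ± 0.18, had intervals that reach from -0.53 and -0.52 to 0.21 and 0.22, so for these kinases a difference was not shown.

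These calls were close to the threshold. Idi1 was called under 13 of 29 alternatives and in 7 of 22 fits that left out 1 library, with adjusted p-values from 2.01e-04 to 0.105. Sqle was called under 10 of 29 and in 4 of 22, from 6.19e-04 to 0.133. When libraries were scaled to total counts, not by TMM, 0 of the 9 were called. Without the 4 libraries high in neutrophil markers Mvd joined Idi1 and Sqle, and without G Fdft1 was called (-1.01 ± 0.15, adjusted p = 0.0129). In size the estimates moved less, from -1.66 to -1.33 for Idi1 and from -1.51 to -1.29 for Sqle.

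The cell types were also compared directly. With vehicle, all 9 enzymes were lower in macrophages than in monocytes, as were 35.1% of 16288 genes, while 28.5% were higher. Idi1 was lowest against monocytes at -2.94 ± 0.13 (adjusted p = 3.32e-10, edgeR), followed by Fdft1 at -2.35 ± 0.10 and Pmvk at -2.14 ± 0.12. Lss differed least, at -0.42 ± 0.17 (adjusted p = 0.0384). Its groups overlapped, and the call was lost under 9 of 18 alternatives (with no filter, limma voom, 1 fit over all groups, or without monocyte replicate 2, 3 or 4 or macrophage replicate A, B or C). The groups of the other 8 did not overlap, where 26.2% of all genes lay entirely lower and 22.8% entirely higher.

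With ox-LDL, all 9 were again lower in macrophages, where 35% of 15825 genes were lower and 30.3% higher. Idi1 stood at -4.41 ± 0.25 (adjusted p = 7.37e-09), 21.2-fold, and Lss at -1.03 ± 0.20 (adjusted p = 5.75e-04) with overlapping groups. Fdft1 at -2.93 ± 0.32 moved to -3.37 ± 0.14 without G. Each enzyme was called under all 18 alternatives. The macrophages also differ from the monocytes by days in culture and PMA, and the monocyte libraries by the other cells named above, which cannot be told apart here.

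Per kilobase of annotated exon, the steps differed in level by over an order of magnitude within a group. In vehicle monocytes the order was Mvd (50.2 ± 6.17 CPM per kilobase, SD, n = 6), Hmgcs1 (34.0 ± 4.97), Fdft1 (25.1 ± 2.44), Pmvk (21.6 ± 2.46), Sqle (17.9 ± 4.21), Idi1 (15.1 ± 2.37), Mvk (8.05 ± 0.85), Lss (3.43 ± 0.82) and Fdps (1.11 ± 0.29). Among neighbours, Fdft1 and Pmvk, Pmvk and Sqle, and Sqle and Idi1 did not differ beyond their SDs. The order of the means was the same with ox-LDL, where Hmgcs1 and Fdft1 overlapped too. Fdps shares most of its sequence with other genes, and the summed exon length of Lss is 10.8 kilobases. The part of either in these levels was not tested.

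In vehicle macrophages Mvd (16.0 ± 1.12 CPM per kilobase, n = 5) and Hmgcs1 (13.2 ± 1.26) again led, followed by Sqle (7.03 ± 0.51), Fdft1 (4.99 ± 0.26), Pmvk (4.97 ± 0.73), Mvk (4.17 ± 0.30), Lss (2.59 ± 0.34), Idi1 (1.99 ± 0.07) and Fdps (0.31 ± 0.06). Only Fdft1 and Pmvk, and Pmvk and Mvk, overlapped with their neighbour. With ox-LDL, Mvd (8.30 ± 0.75, n = 6) and Hmgcs1 (8.13 ± 0.65) no longer differed beyond their SDs. Pmvk (4.06 ± 0.48), which changed least, followed them, and Idi1 (0.66 ± 0.26) stood next to last. Sqle (2.65 ± 0.75) and Fdft1 (2.83 ± 1.87) did not differ beyond their SDs. The mean of Fdft1 rests on G, at 6.64, and its median of 2.08 lay below the 2.67 of Sqle.

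**Figure D3:**
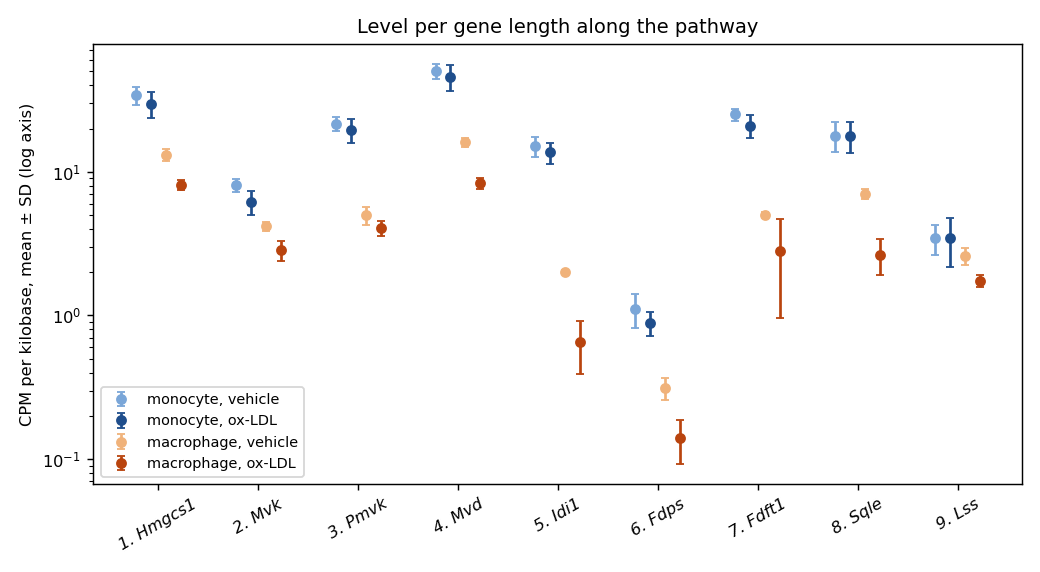
CPM per kilobase of exon, mean and SD on a log axis (y), of the 9 enzymes in pathway order (x) in the 4 groups. Mvd leads in all 4 groups and Fdps is last, and Idi1 lies at 15.1 in vehicle monocytes against 1.99 and 0.66 in macrophages without and with ox-LDL.

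As shares of the enzymes' summed per-length level (TPM), Mvd held 28.4% and 29.1% in monocytes with vehicle and ox-LDL and 29.0% and 26.7% in macrophages. Idi1 went from 8.58% and 8.64% in monocytes to 3.62% ± 0.20 (SD, n = 5) in vehicle and 2.11% ± 0.84 (n = 6) in ox-LDL macrophages. Sqle went from 12.7% ± 1.12 to 8.48% ± 2.38 of the sum with ox-LDL in macrophages, and Pmvk from 8.99% ± 1.11 to 12.9% ± 1.16.

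After group means were removed, the 36 pairs of enzymes over the 11 monocyte libraries had a median Pearson r of 0.62, with 35 above 0, highest for Sqle and Lss (0.95) and for Mvk and Mvd (0.94). The libraries share depth and cell makeup, so these are descriptions. Over the 11 macrophage libraries the median r was -0.11, with 15 pairs above 0. In the mean of the 9 centred log2 levels, monocyte replicates 10 and 11 stood at -0.49 and -0.31 with 0 enzymes above their monocyte mean, and replicates 5 and 6 at -0.07 and -0.13, the latter also with 0 enzymes above the mean. The other 7 monocyte libraries lay from -0.04 to 0.26. The 4 lowest of the 11 were thus the libraries high in neutrophil markers.

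Inside that set, replicates 10 and 11 (ox-LDL) lay entirely below 5 and 6 (vehicle) in 6 of the 9 enzymes (Hmgcs1, Mvk, Pmvk, Mvd, Idi1 and Fdft1), Fdps lay higher, and Sqle and Lss overlapped. Among replicates 3, 4, 8 and 9, Hmgcs1, Mvk, Idi1 and Fdps were entirely lower with ox-LDL and Pmvk was higher. Among 1, 2 and 7, Mvk, Pmvk and Fdft1 were lower and Lss higher. Mvk was the only enzyme entirely lower in all 3 sets, at -0.57, -0.22 and -0.24 in log2 CPM. The means of Fdft1 were also lower in all 3, at -0.52, -0.04 and -0.15, with overlap in the second. With 1 or 2 libraries a side these sets allow no test, and no share over all genes stands beside these counts. With so few libraries, groups can lie apart by chance, also for Mvk.

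**Figure D4:**
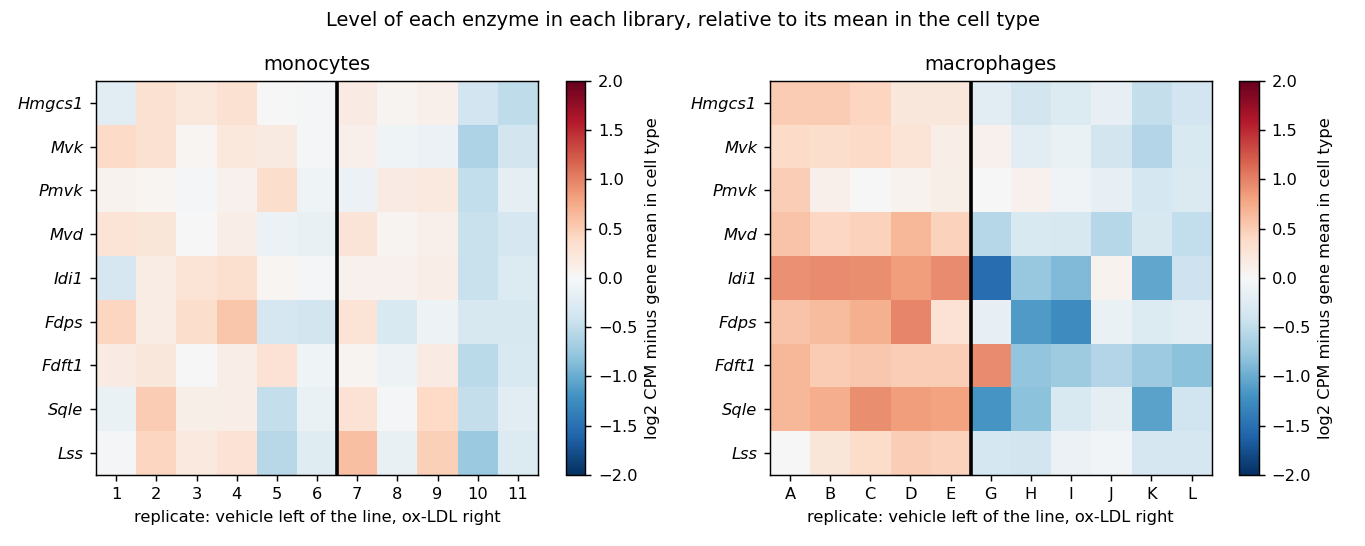
log2 CPM of each enzyme (rows, pathway order) in each library (columns) minus its mean in that cell type, monocytes left and macrophages right, with a line between vehicle and ox-LDL. In macrophages the columns left of the line are above the mean in all 9 rows, and in monocytes replicates 6, 10 and 11 are below it in all 9 rows.

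Neighbouring steps of the pathway were read from lists. Of 11 genes from lanosterol to cholesterol, 8 fell in ox-LDL macrophages and 0 rose, where 1.38% of all genes fell and 0.976% rose, with a median log2 fold change of -0.68. Cyp51, the lanosterol demethylase that takes up the product of Lss, fell from 50.6 ± 2.76 CPM (SD, n = 5) to 22.1 ± 3.73 (n = 6), -1.20 ± 0.11 (adjusted p = 7.68e-05, edgeR). Sc5d, a sterol desaturase, fell from 38.1 ± 2.68 to 22.5 ± 2.65 CPM, and Tm7sf2, a sterol reductase, from 12.0 ± 1.16 to 7.51 ± 0.77 CPM. Upstream, 1 of 6 tested genes of acetyl-CoA supply fell, the acetoacetyl-CoA thiolase Acat2 (-0.73 ± 0.09, adjusted p = 8.85e-04).

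The branch that uses farnesyl and geranylgeranyl units for prenylation, dolichol and ubiquinone behaved otherwise. Of its 21 tested genes 0 were called by edgeR, 15 had estimates above 0 and the median was 0.04. Its most abundant gene, Pcyox1, which degrades prenylcysteines, held 314 ± 26.2 CPM with vehicle and 364 ± 25.3 with ox-LDL (0.21 ± 0.07, adjusted p = 0.164). Between cell types most called genes of the branch were higher in macrophages. With vehicle, 14 of 22 tested genes were higher, against 28.5% of all genes, and 2 were lower, against 35.1%. The lowest adjusted p-values among the higher genes were those of Pcyox1 (2.48 ± 0.14), Nus1 (1.54 ± 0.11), a subunit of the dolichol-forming prenyltransferase, and the dolichol kinase Dolk (0.92 ± 0.10). The 2 lower genes, named after their values were seen, were Pdss1 (-0.85 ± 0.28), a subunit of the synthase that makes the ubiquinone side chain, and Idi2, a second isopentenyl diphosphate isomerase. Idi2 held 0.04 to 0.72 CPM in vehicle monocytes and 0 in all 5 vehicle macrophage libraries. With ox-LDL 13 of 21 were higher, against 30.3% of all genes, and 2 lower, against 35%, and the higher genes with the lowest adjusted p were Pcyox1 (2.50 ± 0.12), Nus1 (1.57 ± 0.11) and the farnesyltransferase subunit Fntb (0.92 ± 0.11).

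Of 17 genes of SREBP control and sterol uptake, 4 fell in ox-LDL macrophages. Insig1, a retention protein that is itself a sterol-regulated gene, fell from 66.7 ± 2.74 to 25.4 ± 1.59 CPM (-1.39 ± 0.06, adjusted p = 2.48e-08), and Stard4, a sterol carrier, from 12.7 ± 1.15 to 4.89 ± 0.88 (-1.38 ± 0.13, adjusted p = 8.59e-05). Srebf2, which encodes SREBP-2, was at -0.69 ± 0.09 in macrophages (adjusted p = 0.00161). In monocytes its groups did not overlap, at 393 to 613 CPM with vehicle and 180 to 361 with ox-LDL, but at -0.83 ± 0.18 it was not called (adjusted p = 0.164), and the 9 enzymes in the same libraries had a median of -0.13. In monocytes 0 genes of any of the 4 lists were called. The most abundant of the others were Cyp51 (-0.10 ± 0.15), the citrate lyase Acly (0.03 ± 0.15) and Srd5a3 (0.02 ± 0.16), a polyprenol reductase. In the difference of effects, 2 of 11 late-step genes (Cyp51 at -1.08 ± 0.20 and Msmo1 at -1.19 ± 0.21) and 3 of 17 control genes were called lower, among them Insig1 (-1.16 ± 0.19) and Stard4 (-0.95 ± 0.18), and 0 of the isoprenoid branch or acetyl-CoA supply. Of all genes, 0.0573% were called lower in this contrast.

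**Figure D5:**
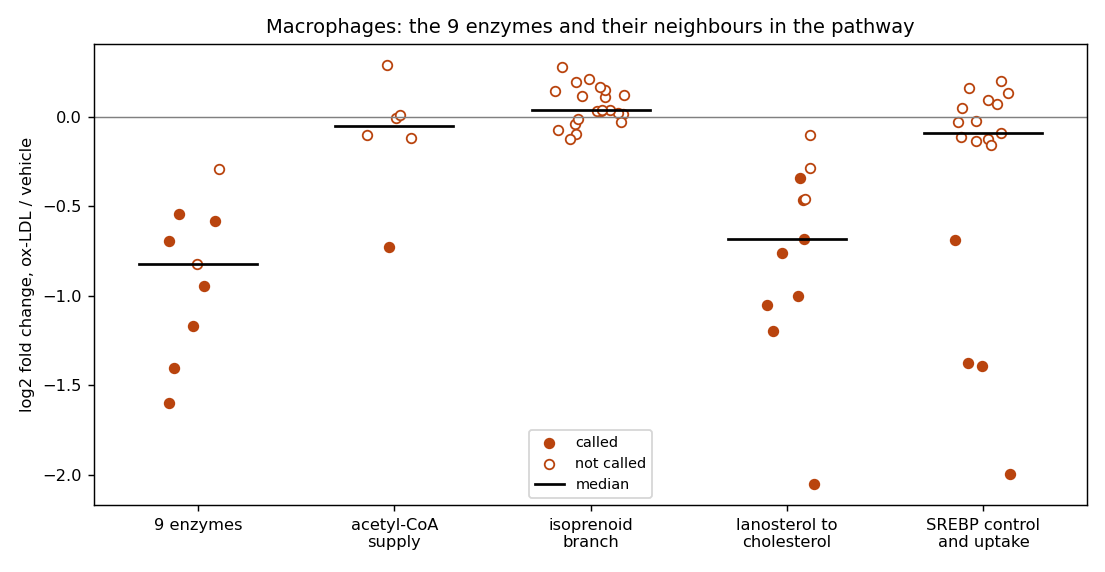
log2 fold change of ox-LDL over vehicle in macrophages (y), 1 point per gene, for the 9 enzymes and 4 lists of neighbouring genes (x), filled where called, with the median as a line. The medians are -0.82 for the enzymes, -0.68 from lanosterol to cholesterol, 0.04 in the isoprenoid branch, -0.05 in acetyl-CoA supply and -0.09 in SREBP control and uptake.

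Between cell types, the late steps were split. The counts stand beside the 35.1% of all genes lower and 28.5% higher with vehicle, and 35% and 30.3% with ox-LDL, and nothing is read from those of acetyl-CoA supply and SREBP control, which lay nearer to these shares. With vehicle, 8 of 11 were lower in macrophages and 2 higher, with Cyp51 at -2.07 ± 0.12 and Sc5d at -0.72 ± 0.09 lower and Dhcr7, the last reductase, at 1.48 ± 0.15 higher. In acetyl-CoA supply 3 of 6 were lower and 1 higher, with Acss2 at -1.41 ± 0.17, Acat2 at -0.59 ± 0.16 and the citrate carrier Slc25a1 at 0.70 ± 0.09. In SREBP control 4 of 17 were lower and 7 higher, with Srebf2 at -1.88 ± 0.15 and, higher, Insig2 at 1.23 ± 0.12 and the protease Mbtps2 at 1.56 ± 0.19. With ox-LDL 9 of 11 late steps were lower and 2 higher, with Cyp51 at -3.16 ± 0.17 and Sc5d at -1.49 ± 0.14. There 4 of 6 supply genes were lower and 1 higher, with Acss2 at -1.37 ± 0.13, Acat2 at -1.48 ± 0.21 and Slc25a1 at 0.80 ± 0.09. Of the control genes 7 of 17 were lower and 8 higher, with Srebf2 at -1.72 ± 0.14 and Mbtps2 at 1.58 ± 0.12. These comparisons share their macrophage and monocyte libraries with those of ox-LDL against vehicle.

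Genes whose pattern over libraries was most like the mean pattern of the 9 enzymes were named by the mean absolute difference of centred log2 CPM, among genes of at least 5 CPM. Over the 11 macrophage libraries they were Sc5d (0.121), Gm5431 (0.133), Tm7sf2 (0.135), Dab2 (0.135), Dpysl2 (0.146) and n-R5-8s1 (0.16), where the median over 9076 genes was 0.466. Of the enzymes, Hmgcs1 (0.118) and Mvd (0.145) were nearest to their own mean and Idi1 (0.427) farthest. Over the 11 monocyte libraries they were Tmem158 (0.0626), Armh3 (0.0627), Icam1 (0.0698), Adap1 (0.0738), Cyb561a3 (0.0751) and Prr5l (0.0754), against a median of 0.27. Over all 22 libraries, where the gap between cell types sets the pattern, Trim34a (0.201), Stk38l (0.216), Tmcc3 (0.229) and Herc6 (0.236) were among the 6 nearest, against a median of 1.12. No gene but Sc5d and Tm7sf2 among these is in a list of pathway neighbours.

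Because 7 of the enzymes fell in ox-LDL macrophages, their promoters were searched on both strands for the core of the sterol regulatory element, TCACNCCAC, the NF-Y box CCAAT and the GC box GGGCGG, from 250 bases before to 50 after the start site (RefSeq, GRCm38.p6). Matches of different motifs did not overlap in the enzymes' windows. The table held windows for 6 enzymes: Hmgcs1, Mvk, Pmvk, Mvd, Idi1 and Lss. The NF-Y box was in all 6 and in 41.1% of 27025 genes, the GC box in 5 (all but Pmvk) and in 38.2%, and the sterol element core in Hmgcs1 alone and in 1.44%. Pmvk has a second window that holds none of the 3 motifs. The 250 bases before its start, at chr3:89459321-89459570, lie inside the annotated Pmvk span (89454541 to 89469013). Which start these cells use was not tested, so the motif results for Pmvk hold for these windows only. By window, the NF-Y box was in 6 of 7 for the enzymes and in 37.4% of 32851. A match is a string of letters and not a bound site, and a missing match to this exact string does not show that an element is absent. The 250 bases before the start are printed for Hmgcs1 (chr13:119690101-119690350, + strand), which holds the sterol element core, Mvd (chr8:122443423-122443672, - strand), with the lowest p, Idi1 (chr13:8885356-8885605, + strand), with the largest fall, and Pmvk (chr3:89454291-89454540, + strand), which was not called. Capitals mark the sterol element core and the NF-Y box, read as ATTGG where it lies on the other strand.
Hmgcs1: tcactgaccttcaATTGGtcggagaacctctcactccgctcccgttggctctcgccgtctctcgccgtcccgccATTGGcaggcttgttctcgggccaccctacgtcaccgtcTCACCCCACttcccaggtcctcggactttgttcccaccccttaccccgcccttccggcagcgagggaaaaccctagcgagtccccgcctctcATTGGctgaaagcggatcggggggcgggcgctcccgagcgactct
Mvd: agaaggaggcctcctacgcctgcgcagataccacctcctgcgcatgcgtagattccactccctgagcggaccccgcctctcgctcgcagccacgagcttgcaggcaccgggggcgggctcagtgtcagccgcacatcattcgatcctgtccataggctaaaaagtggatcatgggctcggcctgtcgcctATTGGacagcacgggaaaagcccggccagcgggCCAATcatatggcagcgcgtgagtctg
Idi1: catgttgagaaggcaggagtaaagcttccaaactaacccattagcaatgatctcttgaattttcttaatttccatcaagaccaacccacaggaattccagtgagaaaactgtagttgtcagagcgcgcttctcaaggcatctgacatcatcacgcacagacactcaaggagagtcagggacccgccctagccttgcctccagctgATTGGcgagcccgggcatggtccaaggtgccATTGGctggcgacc
Pmvk: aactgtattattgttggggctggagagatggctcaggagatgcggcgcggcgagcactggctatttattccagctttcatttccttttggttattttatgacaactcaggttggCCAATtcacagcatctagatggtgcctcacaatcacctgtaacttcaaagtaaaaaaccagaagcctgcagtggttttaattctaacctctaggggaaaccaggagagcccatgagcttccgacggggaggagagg

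In Hmgcs1 the sterol element core begins at position -137 from the start, between NF-Y boxes at -176 and -45. In Mvd, NF-Y boxes begin at -60 and -27, on opposite strands, and in Idi1 at -45 and -14, both on the reverse strand. In Pmvk the single NF-Y box begins at -136. Mvk held 5 NF-Y boxes, at -173, -120, -67, -50 and -14, and Lss 1, at -62. Of the late-step genes, 9 of 10 with a window held the NF-Y box, against 7 of 19 of the isoprenoid branch. In acetyl-CoA supply 3 of 4 held it and in SREBP control 7 of 12, where 41.1% of all genes did. The sterol element core was in 0 genes of each of these lists. Whether these motifs bear on the ox-LDL changes was not tested.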

How the data were processed

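Reads were aligned by the authors with STAR 2.7.9a to GRCm38 and counted with featureCounts 2.0.3 of Subread, per the submitters' processing notes. Per the labels, 10 ng of total RNA went into each library, made with the SMARTer Ultra Low RNA kit. The deposited tables give whole-read counts, CPM, FPKM and TPM per gene. The deposited CPM, FPKM and TPM followed from the deposited counts in every library, and only TPM was used further, for an alternative of the shares. How multi-mapping reads, strand and the annotation release were handled is not given in the sources used here. Of the gene models shared with GENCODE release 21 for mouse, 99.4% had the same start and end.

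Each comparison was fitted on the counts with edgeR 4.0.16 in R 4.3.3 (TMM factors, filterByExpr, quasi-likelihood F test, 2-sided), over the 11 libraries compared or, for the difference of effects, over 22, with Benjamini-Hochberg adjustment over all genes tested. A gene was called at an adjusted p under 0.05. SEs come from the F statistic, and CPM in the text use TMM factors and carry SDs. Log2 levels used a prior count of 2. Labels gave no batch or pairing, so no covariate entered. Alternatives were other scalings, no filter, DESeq2 1.42.0, limma 3.58.1 (voom), 1 fit over all groups, leaving out libraries and, added after the data were seen, library sets as covariates. The fits were tested on simulated data.

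All 9 enzymes are described in each comparison. From each neighbouring list, the rule names up to 3 called genes with the lowest adjusted p, or else the most abundant. By likeness it names 6 genes per set of libraries. A few genes it picks are not reported here and stay in the counts. The members and lists were chosen with earlier results of these data known. Srebf2 in macrophages, where it was the fourth called gene of its list, is given outside the rule and was chosen after its values were seen.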

Additional observations from a re-analysis of the deposited data

Results flagged for a closer look

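Among the 36 combinations of enzyme and group, 3 held a library far from the rest of its group, where about 1 in 20 would by chance. Fdft1 in ox-LDL macrophages had replicate G at 27.3 CPM, with the other 5 libraries between 7.98 and 9.35. Pmvk in vehicle macrophages had replicate A at 10.7 CPM, with the others between 7.60 and 8.19. Pmvk in vehicle monocytes had replicate 5 at 45.0 CPM, with the others between 32.9 and 37.3, and its ratio of 0.642 was close to the limit.

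The ox-LDL effect differed between macrophages and monocytes for Idi1, by -1.45 on the log2 scale (adjusted p = 0.0354, edgeR), and for Sqle, by -1.40 (adjusted p = 0.0444). In each, 6 of 6 ox-LDL macrophage libraries lay below the vehicle libraries, while the monocyte groups overlapped.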

How the results depend on the processing

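No paired analysis was possible because the labels give monocyte libraries numbers 1 to 11 and macrophage libraries letters, and no number is shared between groups. In macrophages and in both comparisons of the cell types, each enzyme kept its sign under every alternative run. The count of enzymes called there stayed within 5 and 8 of 9 in macrophages (5 in 1 fit over all groups). The cause of each change below was not tested.

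In macrophages 342 genes were called in all. The count was 698 with DESeq2, 80 in 1 fit over all 4 groups, 768 with library sets as a covariate, and 150 to 348 when 1 library was left out (150 without B or E, 188 without H, 187 without L). With total counts 92 rose and 334 fell, against 142 and 200 with TMM factors. In monocytes 4 genes were called: 9 with no filter, 161 with DESeq2, 7 with limma voom, 259 in 1 fit over all groups, 0 without the 4 libraries high in neutrophil markers (2689 genes there had an unadjusted p under 0.05 in edgeR), 122 and 227 with 2 and 3 library sets, and 0 to 8 when 1 library was left out.

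The monocyte estimates of Sqle and Lss, 0.02 and 0.04, turned below 0 with total counts (-0.037 and -0.017). Without vehicle replicate 5 or 6 or ox-LDL replicate 7 or 9 both turned too, and Sqle also without vehicle replicate 1. Over the fits that left out 1 library, Sqle ran from -0.084 to 0.13 and Lss from -0.12 to 0.18. Lss also turned with limma voom (-0.0063), and Sqle in 1 fit over all groups (-0.0071). Pmvk turned to 0.067 without the 4 libraries.

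For the difference of effects 2 enzymes and 11 genes in all were called. Total counts gave 0 enzymes and 5 genes, DESeq2 60 genes, library sets 64, and the fit without the 4 neutrophil-high libraries 129. Leaving out 1 library gave 0 to 3 enzymes and 1 to 44 genes. No enzyme was called there without any one of monocyte replicates 1, 5, 6, 8 and 9 or macrophage replicates A, B, C, D, E, H, I, K and L. Counts down to 15 reads limit Fdps.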
